A study of Homo sapiens with 6 samples.

Results

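Notch signalling is a short-range pathway in which a receptor on a cell is engaged by a ligand on its neighbour. Pulling by the ligand exposes the receptor to proteases, and the freed intracellular domain enters the nucleus and joins the DNA-binding factor RBPJ to switch on repressors of the HES and HEY families. In bone the pathway is known for restraining the maturation of osteoblasts, and inherited mutations of JAG1 and NOTCH2 cause disorders with skeletal signs.

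The 10 Notch genes described here were taken by symbol from a table of 54308 genes, and all 10 had a value in every library. They are the receptors NOTCH1, NOTCH2 and NOTCH3, the ligands JAG1, JAG2 and DLL1, the nuclear factor RBPJ, and the target genes HES1, HEY1 and HEYL. The cells were 143B, a human osteosarcoma line. They carried either a vector plasmid (VC, vector control, genotype control, 3 libraries) or a CRISPR/Cas9 deletion of CNTNAP4, a neurexin-family membrane protein (KO, 3 libraries). The comparison asks how transcripts differed once CNTNAP4 was deleted. The labels give 48 h of transfection for all 6 samples, and the study's methods describe cells sorted singly and grown as clones before RNA was taken. The clone or clones behind each library are not named, so a difference between clones and the loss of CNTNAP4 cannot be told apart, and p-values measure the spread between these samples.

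RNA sequencing was deposited as log2 signals that had been quantile-normalized between libraries. The 6 libraries held values for 20333 to 21041 genes each, shared a median of 0.62, and ran from -10.87 to 12.04 on the log2 scale. Read counts were not used here, so the depth is unknown, and the linear unit is not stated, so levels were not ranked between genes. CNTNAP4 had a value of -7.18 in VC replicate 3 and none in the other libraries, which is too little to check the labels. Of 8 mesenchymal and osteoblast markers, 7 had values in every library, with VIM at 10.3 to 10.9. SP7, a defining osteoblast factor, lay below -6 where it had a value and was empty in VC replicate 1 and KO replicate 2. At an adjusted p under 0.05 in limma, 4 of the 8 differed. ALPL, COL1A1 and SPARC rose by 0.58, 0.33 and 0.37 on the log2 scale, and COL1A2 fell by 0.81. Means in VC and KO were -4.81 and -5.62 for COL1A2 and -1.27 and -0.69 for ALPL. KRT14 had no value in any library and CDH1 had 1 value of -8.04. EPCAM fell by 0.67 on the log2 scale and CD68 rose by 1.66 (limma, adjusted p = 0.0157 and 0.00963). The summed level of the 4 epithelial markers was 1.63 to 1.80 in VC and 0.84 to 1.16 in KO, that of the 4 blood markers 4.43 to 4.52 and 5.71 to 6.46, and that of the 4 endothelial markers -4.18 to -3.50 and -4.15 to -3.20. Their part in the results for the Notch genes was not tested. In bulk RNA, fewer cells of a type and less RNA per cell cannot be told apart.

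Among the 10 genes, JAG1 and HEY1 rose 2.94- and 2.45-fold, NOTCH2 and HES1 rose 1.27- and 1.23-fold, and JAG2 and HEYL fell to 0.463 and 0.803 of their VC levels. NOTCH1, NOTCH3, DLL1 and RBPJ did not pass the test. KO was compared with VC in limma's linear model across 19306 genes, and a gene was called at a Benjamini-Hochberg adjusted p under 0.05 over all of them. By this rule 6 of the 10 genes were called, 4 higher and 2 lower. Across the transcriptome 32.9% of tested genes were called, 13.1% higher and 19.8% lower. In 7 of the 10 genes the VC and KO values did not overlap, against 59.3% of the 17698 genes with 6 values. The median log2 fold change was 0.13 for the 10 genes and -0.12 for all tested genes. Since the 10 genes were chosen with earlier results of these data known, they are not a neutral sample to set against all genes. With each library centred on its median, 4 of the 10 were called higher and 1 lower, HEYL being the gene lost, against 15.6% higher and 16.7% lower of all tested genes in that fit.

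**Figure D1:**
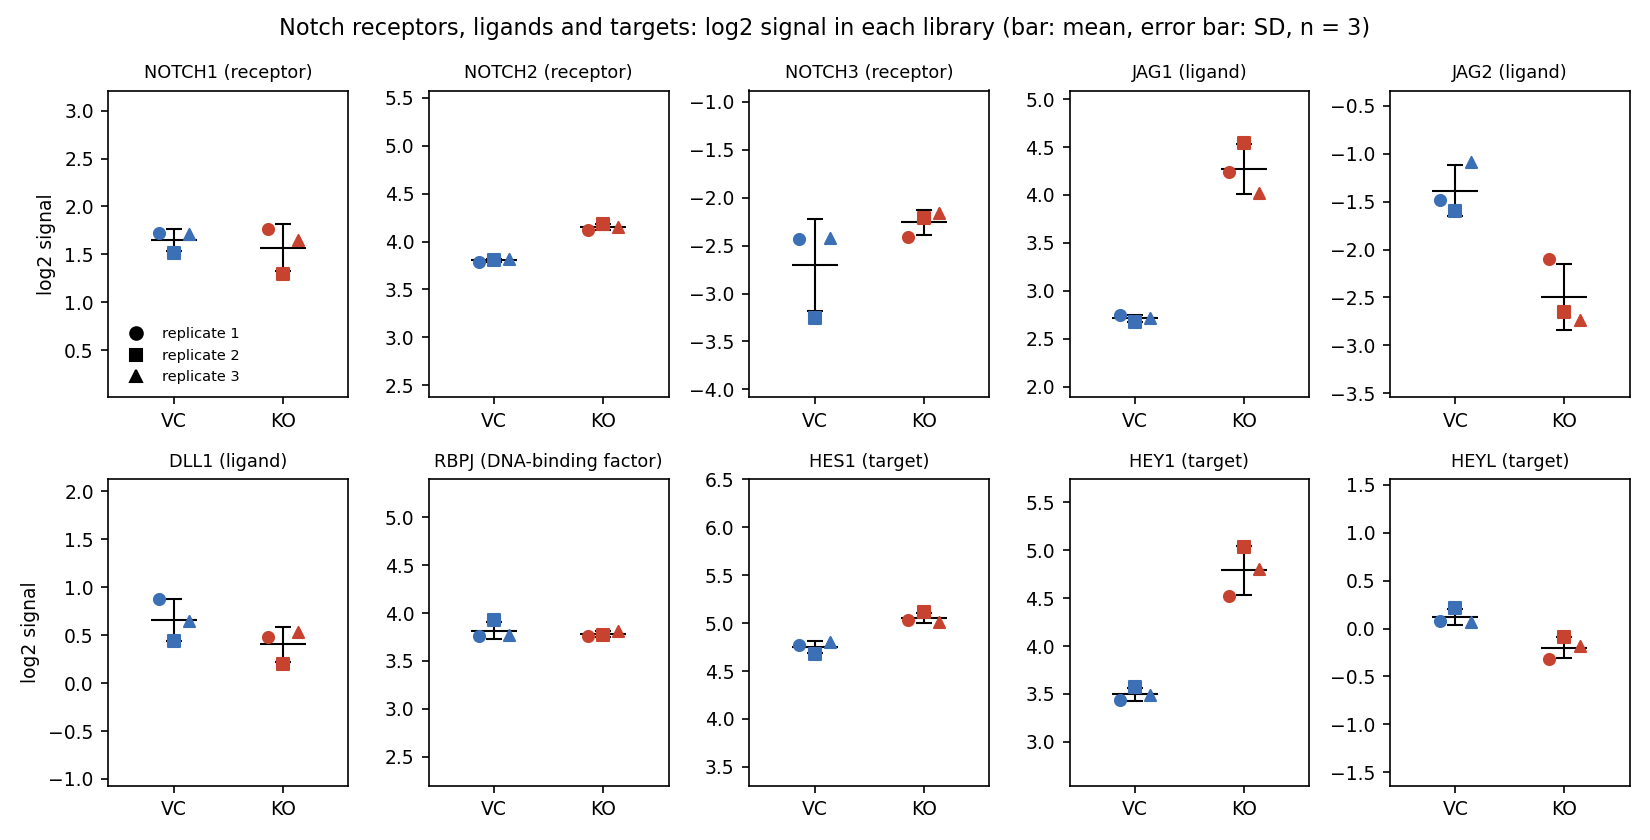
Log2 signal (y axis) of the 10 Notch genes in VC (blue) and KO (red) libraries, with the replicate shown by the marker, the mean as a bar and the SD as an error bar (n = 3). Every panel spans the same height on the log2 scale, and JAG1, HEY1 and JAG2 stand furthest apart between the groups (log2 fold changes of 1.56, 1.29 and -1.11).

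Of the receptors, NOTCH2 was the member that passed the test. NOTCH2, on the minus strand at chr1:119911553-120069626 of GRCh38, had log2 signals of 3.79, 3.81 and 3.81 in VC and 4.12, 4.18 and 4.15 in KO. All KO libraries lay above all VC libraries, and the spread within each group was small, with an SD of 0.015 in VC and 0.031 in KO (n = 3). The difference of 0.35 (SE 0.062), a 1.27-fold rise, had an adjusted p of 0.0174 in limma. This call was narrow, since the adjusted p stayed under 0.05 without KO replicate 1 (0.0122) or KO replicate 2 (0.0327) and was 0.0521 to 0.0725 without any other single library.

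NOTCH2 also has near-identical partial copies in the human genome, the NOTCH2NL genes, and how the authors' counting divided reads between them is not stated, so the value of NOTCH2 is uncertain to that extent. The copies were looked up after the NOTCH2 values had been seen. NOTCH2NLA had log2 signals of 1.53, 1.45 and 1.31 in VC and 2.70, 3.09 and 2.64 in KO, a rise of 1.38 (adjusted p = 0.00847 in limma). NOTCH2NLC had signals of 1.90 to 2.01 in VC and 3.14, 3.62 and 2.94 in KO, a rise of 1.26 (adjusted p = 0.0127). NOTCH2NLR and NOTCH2NLB rose by 1.10 and 0.70 (adjusted p = 0.0154 and 0.0235 in limma). In all 4 copies the KO values lay above the VC values, as they did in 3996 of the 17698 genes with a value in every library. Each copy's estimated log2 fold change was larger than that of NOTCH2. Since the copies are near-identical and the division of reads is not stated, the 4 may share reads and are not separate observations.

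**Figure D2:**
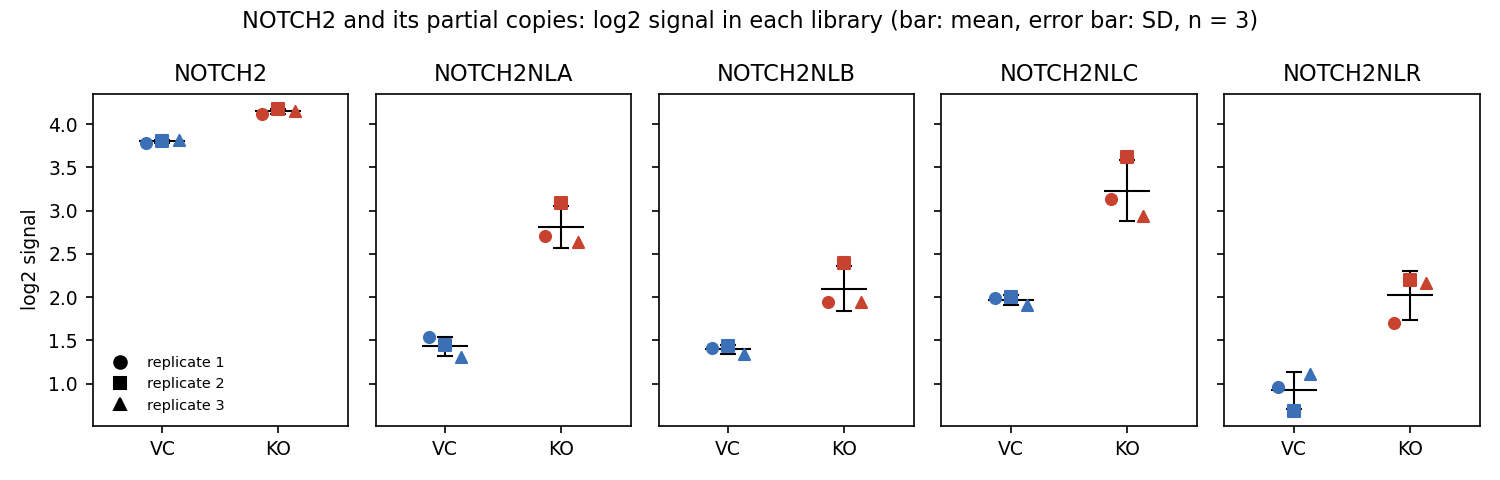
Log2 signal (y axis) of NOTCH2 and 4 NOTCH2NL copies in VC (blue) and KO (red), with the mean as a bar and the SD as an error bar (n = 3). KO sits above VC in all 5 panels, by 0.35 for NOTCH2 and by 0.70 to 1.38 for the copies.

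NOTCH1, the receptor best known from leukaemia, lies at chr9:136494433-136545786 on the minus strand. Its signals were 1.72, 1.51 and 1.71 in VC and 1.76, 1.30 and 1.65 in KO, so the groups overlapped. The log2 fold change was -0.08 with a 95% confidence interval of -0.45 to 0.29 (adjusted p = 0.708 in limma), and the sign turned to 0.06 without KO replicate 2. NOTCH3, a receptor prominent in vascular smooth muscle, lies at chr19:15159038-15200981 on the minus strand. It had signals of -2.43, -3.26 and -2.42 in VC and -2.41, -2.21 and -2.15 in KO. The KO values lay above the VC values by as little as 0.018, and VC replicate 2 stood 0.83 below the nearest VC library. The log2 fold change of 0.45 (interval -0.19 to 1.09) did not pass the test (adjusted p = 0.222 in limma), and it was 0.17 without VC replicate 2. The intervals of NOTCH1 and NOTCH3 allow changes in either direction, and that of NOTCH3 includes a doubling.

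The ligands moved apart. JAG1, the ligand altered in Alagille syndrome, lies at chr20:10637684-10673999 on the minus strand and had log2 signals of 2.75, 2.67 and 2.71 in VC and 4.24, 4.54 and 4.02 in KO. Every KO library stood more than 1 log2 unit above every VC library. The rise of 1.56 (SE 0.14), 2.94-fold with an interval of 2.29 to 3.79, had an adjusted p of 0.00789 in limma, and the call held in each of the 6 fits that left out a library (adjusted p at most 0.0410). Only 2.11% of tested genes had a higher log2 fold change than JAG1.

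JAG2, the other Jagged ligand, lies at chr14:105140981-105168824 on the minus strand. It had signals of -1.48, -1.59 and -1.08 in VC and -2.10, -2.65 and -2.74 in KO, which did not overlap. The fall of 1.11 on the log2 scale (SE 0.23), to 0.463 of the VC level with an interval of 0.311 to 0.689, had an adjusted p of 0.0229 in limma. The adjusted p was 0.00925 without KO replicate 1 and 0.0523 to 0.0689 without any other single library. JAG2 is not among the upper 50% of genes by mean signal. On the scale of log2(signal + 1) its log2 fold change shrank to -0.23 (adjusted p = 0.0210), and without variance moderation its adjusted p was 0.0511.

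DLL1, a Delta ligand, lies at chr6:170282206-170306565 on the minus strand and had signals of 0.88, 0.44 and 0.65 in VC and 0.48, 0.20 and 0.53 in KO. The groups overlapped, and the log2 fold change of -0.25 (interval -0.64 to 0.13) did not pass the test (adjusted p = 0.248 in limma). DLL1 overlaps FAM120B on the opposite strand, and since the strand setting of the counting is not stated, reads of the pair may not have been separated. FAM120B had a mean of 1.49 in VC and 1.44 in KO.

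RBPJ, through which the cleaved receptors act on DNA, lies at chr4:26163455-26435131 on the plus strand. Its signals were 3.76, 3.92 and 3.77 in VC and 3.76, 3.77 and 3.81 in KO. The groups overlapped and the log2 fold change was -0.04, with an interval of -0.23 to 0.16, or 0.852 to 1.11 as a fold (adjusted p = 0.731 in limma). Its pseudogenes RBPJP2, RBPJP5, RBPJP6 and RBPJP7 had no value in any library.

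HES1, a repressor that Notch induces directly in many cell types, lies at chr3:194136145-194138732 on the plus strand. It had log2 signals of 4.77, 4.68 and 4.80 in VC and 5.04, 5.12 and 5.01 in KO. The groups were separate, and the KO values lay within 0.10 of each other. The rise of 0.30 (SE 0.072), 1.23-fold with an interval of 1.09 to 1.40, had an adjusted p of 0.0312 in limma. It was 0.0299 without KO replicate 1 and 0.0601 to 0.0933 without any other library.

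HEYL, a HEY-family repressor known as a target of NOTCH3 in smooth muscle, lies at chr1:39624153-39639945 on the minus strand and went the other way. Its signals were 0.08, 0.21 and 0.06 in VC and -0.32, -0.09 and -0.19 in KO, with the highest KO value 0.16 below the lowest VC value. The fall of 0.32 (SE 0.092), to 0.803 of the VC level, had an adjusted p of 0.0495 in limma, at the edge of the threshold. It was not called in any fit that left out a library (0.0503 to 0.121), with the libraries centred on their medians (-0.23, adjusted p = 0.172), or with trend and robust moderation (adjusted p = 0.0770).

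The sequences before the start sites are shown because both HES1, which rose, and HEYL, which fell, carry the letters that RBPJ is known to recognise, TGGGAA, or TTCCCA on the other strand. In the RefSeq promoter table for GRCh38.p14, 8 of the 10 genes had an entry; HEY1 and DLL1 had none. The 250 bases upstream of the start were searched on both strands, and these letters were present in 20.8% of 35116 promoters. Counted by gene, with any start, they were present in 24.6% of 27305 genes. HES1 holds 2 matches in the same direction with 8 bases between them, the first base of each lying 84 and 70 bases before the start. HEYL holds 2 matches in opposite directions with 73 bases between them, at 178 bases on the other strand and at 99 bases. The HEYL window, chr1:39639644-39639893, lies inside the span given for the gene above, which came from GENCODE 29. Both HEYL matches are therefore upstream of the RefSeq start but within the gene as GENCODE places it. Of 5 starts of RBPJ itself, start 2 alone holds matches, also 2, and NOTCH1, NOTCH2, NOTCH3, JAG1 and JAG2 hold none in this window. Below are the bases 160 to 11 before the HES1 start (chr3:194135988-194136137, plus strand), both HEYL matches with 10 bases on each side (chr1:39639806-39639831 and chr1:39639727-39639752, minus strand), and, as the upregulated ligand without a match, the same window of JAG1 (chr20:10674010-10674159, minus strand). Capitals mark the match, and sequences run 5′ to 3′ on the strand of the gene.
HES1: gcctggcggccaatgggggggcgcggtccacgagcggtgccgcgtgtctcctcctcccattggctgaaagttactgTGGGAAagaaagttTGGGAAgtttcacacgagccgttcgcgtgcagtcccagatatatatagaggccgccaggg
HEYL match 1: gcctagggccTTCCCAcggctcggcg
HEYL match 2: gaaagggcccTGGGAAagggcggtgg
JAG1: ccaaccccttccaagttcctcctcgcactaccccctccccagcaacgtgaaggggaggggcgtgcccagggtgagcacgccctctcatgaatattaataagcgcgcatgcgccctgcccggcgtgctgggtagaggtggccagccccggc

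As letters, the 2 capital runs of HES1 stand close together and point the same way, while those of HEYL run in opposite directions. Other forms of RBPJ site were not searched, so the runs do not give the arrangement of RBPJ sites, and binding was not tested. The letters are a description of the window, and a gene without them here may hold them elsewhere. The TGGGAA letters overlap the GGGAA end of sites known for NF-kB.

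HEY1, a HEY-family repressor commonly used as a readout of Notch activity, had log2 signals of 3.43, 3.57 and 3.49 in VC and 4.52, 5.04 and 4.81 in KO. Every KO library lay above every VC library, and the KO values were more spread (SD 0.26 against 0.069, n = 3). The rise of 1.29 (SE 0.15), 2.45-fold with an interval of 1.90 to 3.16, had an adjusted p of 0.00898 in limma. The call held in each of the 6 fits that left out a library (adjusted p at most 0.0436), and 3.30% of tested genes had a higher log2 fold change. HEY1 and JAG1 were the genes of the 10 that were called in all 6 of these fits.

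The other genes of the pathway were counted in 8 lists of 4 to 14 genes. The lists were chosen with earlier results of these data known, and no list was tested as a set. Of 73 genes, 69 could be tested, and DLK1, CNTN6, MFAP5 and HES3 had too few values. Of the 69, 23 were called (33.3%), 8 higher and 15 lower, against 13.1% higher and 19.8% lower among all genes tested. With each library centred on its median, 11 were called higher and 13 lower, against 15.6% and 16.7% of all tested genes. Most of these calls did not hold when a library was left out. All 23 were called without KO replicate 1, 14 without KO replicate 2, 5 without VC replicate 2, 4 without KO replicate 3, and NEURL1B alone without VC replicate 1 or VC replicate 3. The median log2 fold change was -0.14, close to the -0.12 of all genes tested.

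**Figure D3:**
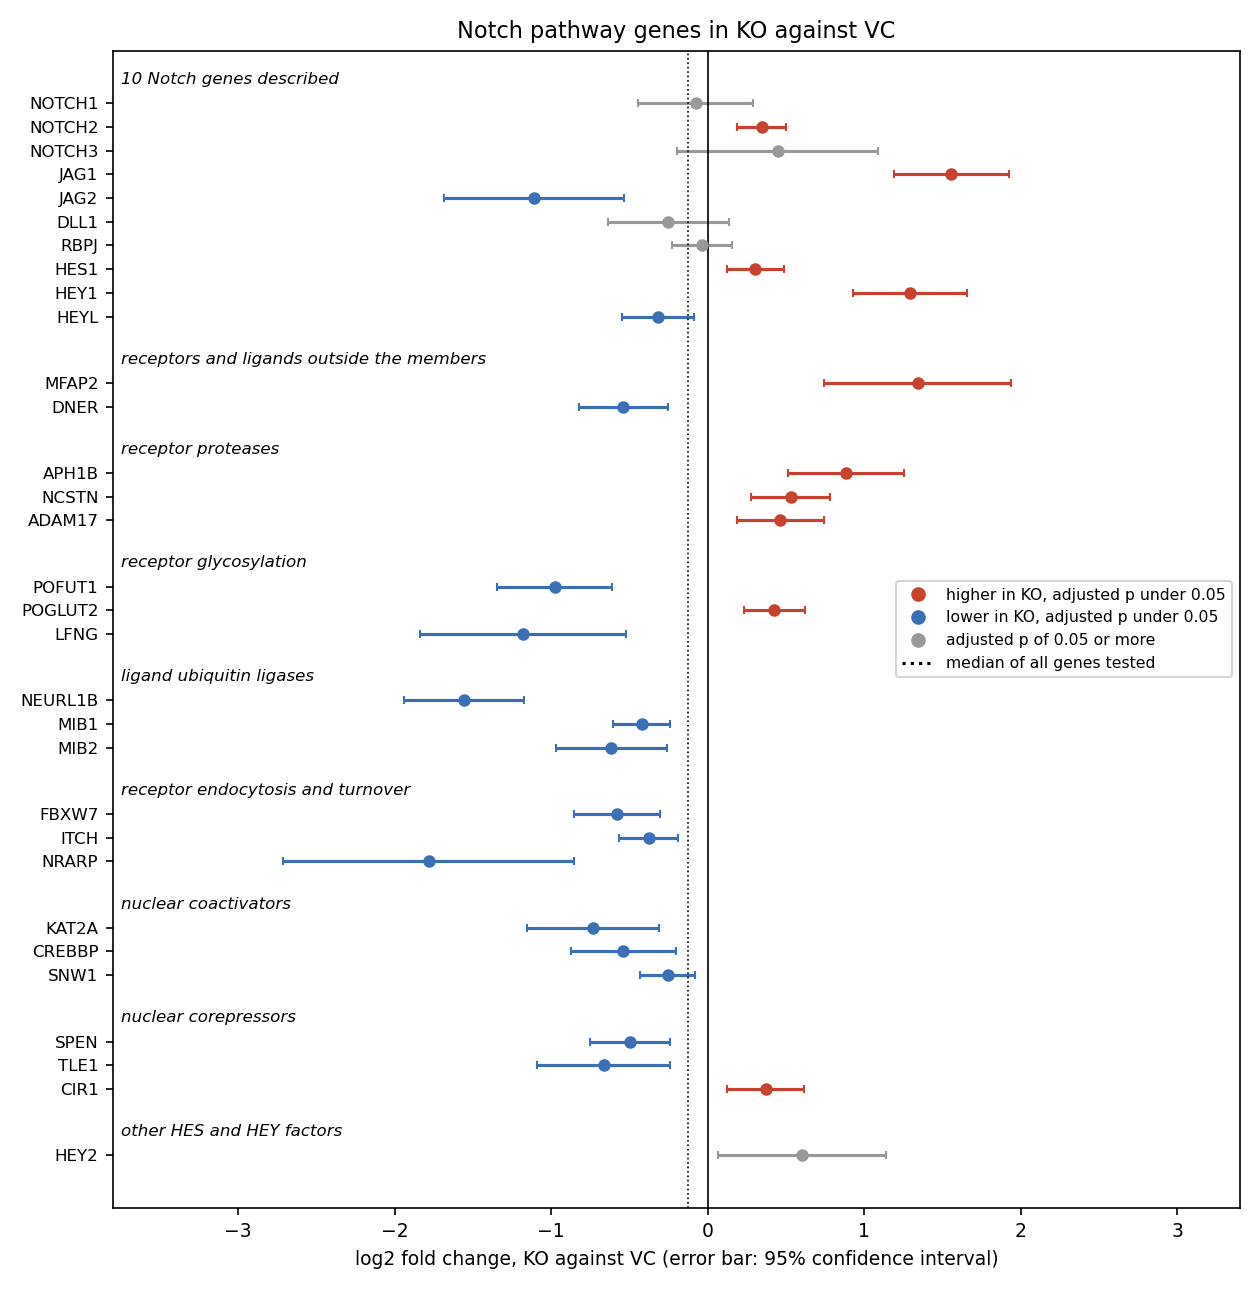
Log2 fold change of KO against VC (x axis) with its 95% confidence interval for the 10 Notch genes and 21 named genes of 8 pathway lists (y axis), in red where called higher, blue where called lower and grey where not called. The dotted line is the median of all genes tested, and JAG1, MFAP2 and HEY1 lie furthest to the right, NRARP and NEURL1B furthest to the left.

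Among 9 tested receptors and ligands outside the 10, 2 were called (22.2%, against 32.9% of all tested genes). MFAP2 rose and DNER fell. MFAP2, a microfibril protein that can bind Notch ligands, had log2 signals of 3.55, 3.54 and 3.47 in VC and 4.35, 5.23 and 5.00 in KO, a rise of 1.34 (adjusted p = 0.0168 in limma). DNER, a Delta-like membrane protein of neurons, fell by 0.54 (adjusted p = 0.0237 in limma). The adjusted p of MFAP2 was under 0.05 without KO replicate 1 or KO replicate 2 and 0.0537 to 0.0622 without another library, and that of DNER was under 0.05 without KO replicate 1 and 0.0531 to 0.0776 otherwise. NOTCH4, the remaining receptor, had a log2 fold change of -0.11 and the endothelial ligand DLL4 one of -0.04, and neither passed the test (adjusted p = 0.662 and 0.953 in limma).

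The proteases that cut the receptors gave 3 called genes of 9 (33.3%), all higher. Of all tested genes 32.9% were called, 13.1% higher. APH1B and NCSTN are subunits of gamma-secretase, which makes the cut in the membrane, and they rose by 0.89 and 0.53 (adjusted p = 0.0152 and 0.0197 in limma). ADAM17, which can make the cut outside the cell, rose by 0.46 (adjusted p = 0.0312). APH1B went from -0.02, -0.04 and -0.13 in VC to 0.60, 1.11 and 0.76 in KO. PSEN2, another gamma-secretase subunit, and the main sheddase ADAM10 were not called.

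The enzymes that add sugars to the receptors gave 4 called genes of 8, 1 higher and 3 lower. POFUT1, which adds O-fucose, had log2 signals of 5.06, 5.03 and 5.09 in VC and 4.36, 3.84 and 4.05 in KO, a fall of 0.98 (adjusted p = 0.0130 in limma). LFNG, the lunatic fringe enzyme that extends that fucose, went from -0.02, -0.41 and -0.14 to -1.10, -1.91 and -1.10, a fall of 1.18 (adjusted p = 0.0273). POGLUT2, an O-glucosyltransferase, rose by 0.42 (adjusted p = 0.0177 in limma), while its relative POGLUT3 fell by 0.50 (adjusted p = 0.0313). Of the 6 fits that left out a library, POFUT1 and POGLUT2 were called in 4, LFNG in 2 and POGLUT3 in 1. LFNG and POGLUT3 were not called without variance moderation.

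The ubiquitin ligases that make ligands fit to signal gave 3 called genes of 4 (75.0%), all lower. Of all tested genes 32.9% were called, 19.8% lower. NEURL1B, of the Neuralized family, had log2 signals of 0.23, 0.22 and 0.32 in VC and -1.01, -1.57 and -1.31 in KO. All KO libraries lay more than 1 log2 unit below all VC libraries, and the fall of 1.56 (adjusted p = 0.00789 in limma) was called in each of the 6 fits that left out a library. MIB1 and MIB2, the Mind bomb ligases, fell by 0.42 and 0.62 (adjusted p = 0.0154 and 0.0290 in limma). These went below 0.05 in 2 and 1 of the 6 fits.

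Of 10 genes for receptor endocytosis and turnover, 5 were called, 2 higher and 3 lower. NRARP, a feedback inhibitor that is itself a known Notch target, had log2 signals of 3.02, 2.67 and 3.01 in VC and 1.56, 0.30 and 1.48 in KO. The groups were far apart, but KO replicate 2 stood more than 1 log2 unit below the other KO libraries. The fall of 1.78 (SE 0.37, adjusted p = 0.0234 in limma) was -1.38 without KO replicate 2, and its adjusted p was 0.0539 to 0.0759 without KO replicate 3 or any VC library. FBXW7, which marks the cleaved receptor for degradation, and ITCH, which marks the receptor at the membrane, fell by 0.58 and 0.38 (adjusted p = 0.0196 and 0.0214). Of the fits that left out a library, both were called only in those without KO replicate 1 or KO replicate 2, and ITCH was not called with median-centred libraries (-0.29, adjusted p = 0.0645). NUMB, an inhibitor of the receptor, and DTX2, a Deltex ligase, each rose by 0.33 (adjusted p = 0.0365 and 0.0236 in limma). They were called in 1 and 2 of the 6 fits that left out a library.

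In the nucleus, 3 of 8 coactivators were called (37.5%), all lower, against 32.9% called and 19.8% called lower of all tested genes. The acetyltransferases KAT2A and CREBBP fell by 0.73 and 0.54 and the adaptor SNW1 by 0.26 (adjusted p = 0.0288, 0.0338 and 0.0436 in limma). With a library left out, each of these 3 was called only without KO replicate 1, and SNW1 was not called with median-centred libraries (-0.17, adjusted p = 0.117). KAT2A and CREBBP were not called without variance moderation. None of the MAML genes, whose products bridge RBPJ and the receptor, was called. Of 14 corepressors 3 were called (21.4%, against 32.9% of all tested genes). SPEN and TLE1 were lower by 0.49 and 0.66 (adjusted p = 0.0228 and 0.0365) and CIR1 higher by 0.37 (adjusted p = 0.0394 in limma).

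Of the HES and HEY genes outside the 10, 7 were tested and 0 were called in limma, against 32.9% of all tested genes. At an unadjusted p under 0.05 were 3 of the 7, as were 47.9% of all tested genes. HEY2, a relative of HEY1, had log2 signals of -1.22, -1.55 and -1.08 in VC and -0.32, -0.76 and -0.96 in KO. The KO values lay above the VC values, and the log2 fold change of 0.60 missed the threshold (adjusted p = 0.0796). It passed with the libraries centred on their medians.

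Chromosomes differed in their median log2 fold change, so each gene was set beside the genes around it, a look added after the data had been seen. Positions came from GENCODE 29, which placed 84.7% of tested genes. HEY1 lies on chromosome 8, where 570 tested genes had a median of -0.34. Of its 30 nearest tested genes 14 were called lower and 1 higher, with a median of -0.53. JAG1 lies on chromosome 20, with a median of -0.24 over 453 genes. Its 30 nearest tested genes had a median of 0.08, with 7 called higher and 1 lower. HEY1 and JAG1 thus stood 1.63 and 1.80 above the medians of their chromosomes.

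JAG2 lies near the end of chromosome 14, whose median was -0.39 over 523 genes. Its 25 nearest tested genes had a median of -0.57, and 13 of them were called lower and 3 higher, so JAG2 moved in the direction of its surroundings and lay 0.72 below the chromosome's median. POFUT1 on chromosome 20 and LFNG on chromosome 7 had neighbours with medians of -0.59 each. For NOTCH2, HES1 and HEYL the neighbours' medians were -0.14, -0.18 and -0.16. The part of the chromosome in these results was not tested.

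**Figure D4:**
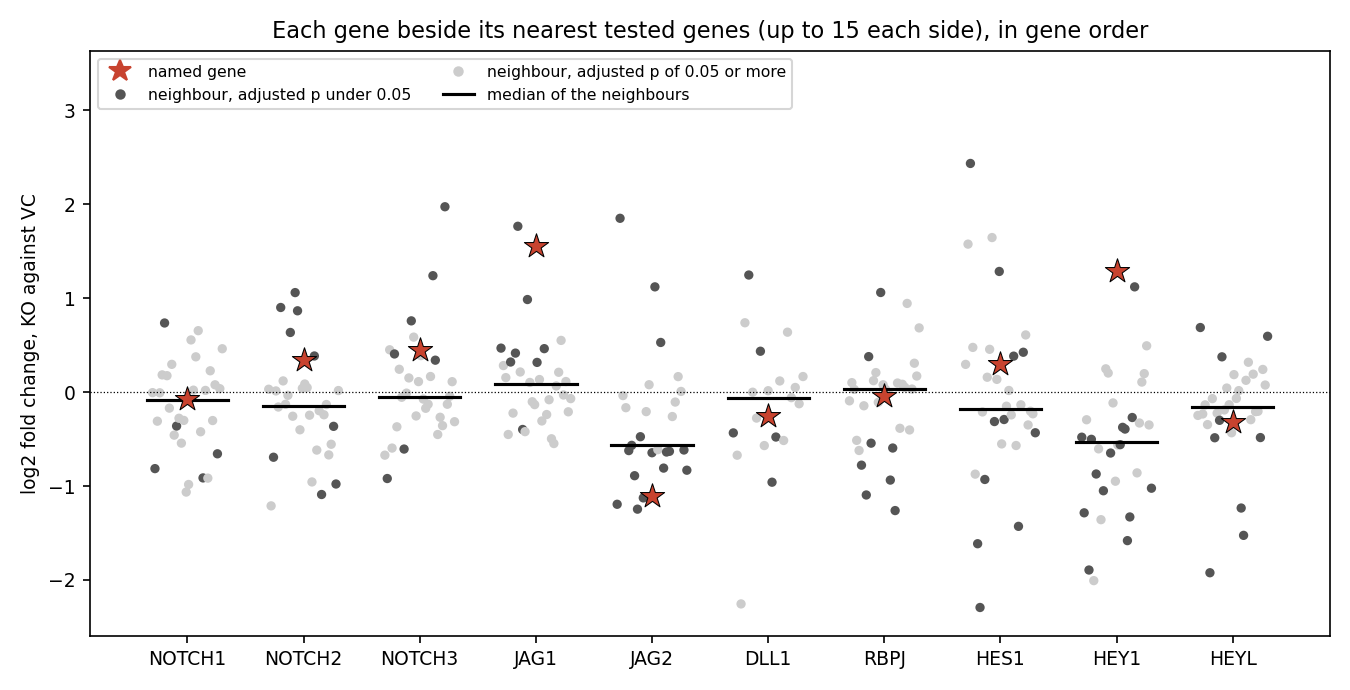
Log2 fold change of KO against VC (y axis) for each of the 10 Notch genes (star) and its nearest tested genes on the same chromosome, up to 15 on each side in gene order (dots, dark where called), with their median as a line. HEY1 and JAG1 stand above their neighbours' medians of -0.53 and 0.08, and JAG2 lies beside neighbours with a median of -0.57.

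The KO libraries differed from each other more than the VC libraries did, with a median SD of 0.155 in KO and 0.086 in VC over the 10 genes, and 0.182 and 0.094 over all genes with 6 values. KO replicate 2 lay furthest from the VC mean in 6 of the 10 genes, JAG1, HEY1, HES1 and NOTCH2 among them, and KO replicates 1 and 3 in 2 each. For JAG1 and HEY1 the log2 fold change without KO replicate 2 was 1.42 and 1.17. Their rise was therefore of similar size without the most distant library.

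**Figure D5:**
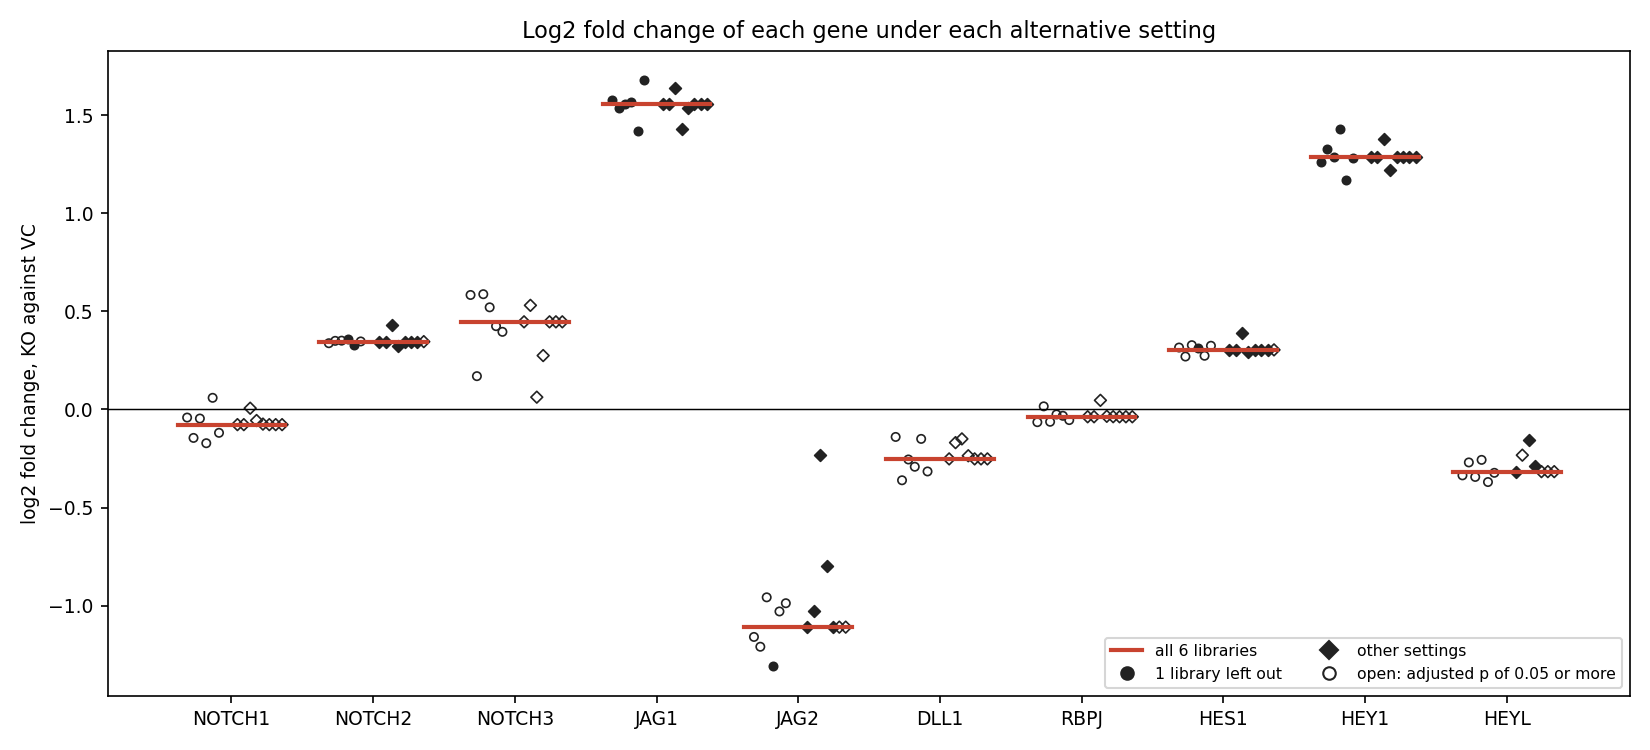
Log2 fold change of KO against VC (y axis) of the 10 Notch genes with all libraries (red line), with 1 library left out (circles) and under other settings (diamonds), filled where the adjusted p was under 0.05. JAG1 and HEY1 are filled throughout, between 1.42 and 1.68 and between 1.17 and 1.43 with a library left out, while HEYL is open in all of its leave-out fits.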

How the data were processed

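RNA of 143B cells, 3 VC and 3 KO samples, prepared independently, was sequenced by the authors on an Illumina NextSeq. The labels name a stranded mRNA kit and the study's methods total RNA. The methods name CLC Genomics and Partek, and the submitters' processing notes CASAVA, STAR, Partek and GRCh38.p13. The annotation and the counting are not given in the sources used here. The authors deposited log2 signals, quantile-normalized between libraries, with empty cells where a gene had no value.

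Signals were used as deposited in R 4.3.3 with limma 3.58.1, as KO minus VC with empirical Bayes moderation, for genes with 2 or more values per group. Two-sided p-values were adjusted by Benjamini-Hochberg over all 19306 genes, and the fit was tested on simulated data. The simulation gave both groups the same spread, so it does not show how the fit behaves with the wider spread of KO. The 10 genes, the pathway lists and the markers were chosen with earlier results of these data known. In each list the 3 called genes with the smallest p were named, or the top 1 where none was called; POGLUT3, NUMB, DTX2, NOTCH4, DLL4, the uncalled genes and the NOTCH2NL copies were added after their values were seen. Same-numbered VC and KO libraries did not deviate together. Positions came from GENCODE 29 and promoters from RefSeq. Not every gene of the lists is reported by name here.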

Additional observations from a re-analysis of the deposited data

How the results depend on the processing

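Of the 10 genes, JAG1 and HEY1 kept their direction and an adjusted p under 0.05 under every alternative run (genes with 6 values, upper 50% of mean signal, median-centred libraries, 1 or 0.1 added to the linear signal, trend and robust moderation, no variance moderation, the replicate block, and each library left out). The labels give only a shared number, and same-numbered libraries had correlations of deviations of 0.0226, 0.00509 and -0.00736. With that number as a replicate block, 2 of the 10 genes (HEY1 and JAG1), 4 of the other pathway genes (LFNG, NEURL1B, NRARP and POFUT1) and 1533 of all genes were called, against 6, 23 and 6354; the adjusted p of NOTCH2, JAG2, HES1 and HEYL was then 0.0675, 0.0651, 0.1004 and 0.0830. With single libraries left out, 2 to 5 of the 10 genes, 1 to 31 of the other pathway genes and 1223 to 8669 of all genes were called. Of the 10 genes, 2 were called without VC replicate 1, VC replicate 2, VC replicate 3 or KO replicate 3, 3 without KO replicate 2 and 5 without KO replicate 1. Over all genes the fewest were called without VC replicate 3 and the most without KO replicate 1. Those fits hold fewer samples. The excess of lower over higher genes turned without VC replicate 1 (757 higher, 646 lower) and without VC replicate 3 (654 higher, 569 lower). With no variance moderation 14 of the 69 other pathway genes tested were called, against 23.0% of all genes. Signs turned for NOTCH1, to 0.0065 with median-centred libraries and 0.060 without KO replicate 2 (range -0.172 to 0.060 with single libraries left out), and for RBPJ, to 0.047 with median-centred libraries and 0.016 without VC replicate 2 (range -0.0647 to 0.016). The cause was not tested. NOTCH3, JAG2, DLL1 and HEYL were not among the upper 50% and have no value there. No depth is known, so counting error could not be given.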
